A study of Mus musculus with 4 samples.

Results

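The genes described here are 10 macrophage genes, Lyz2, C1qa, C1qb, C1qc, Cd68, Cd52, Gpnmb, Mmp12, Clec4a3 and Cd209d, chosen by symbol because several of them had differed between these arrays. Of the 10, 9 had a probe among the 16593 genes named on the platform, with 15 probes of 23978 that carried 1 gene symbol. Cd68 had no probe under its symbol and is not analysed here. The data are 4 Illumina mouse BeadChip arrays of total RNA, and each sample is labelled as thyroid of a normal Balb/c mouse in a radioiodine series. The absorbed doses were 0, 0.85, 8.5 and 17 Gy at a time of 24 h, and the comparison implied by the labels is one of expression between absorbed doses. Each dose had 1 array, so the differences carry neither an error nor a p-value, and the labels used here do not give the age, the sex or the number of animals behind a sample.

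Macrophages are tissue phagocytes that take up dead cells, lipid and debris and digest them in lysosomes. In fat and in endocrine glands they are part of the resident stroma, and monocytes from the blood add to them after injury. Lyz2 encodes lysozyme, C1qa, C1qb and C1qc the chains of the complement recognition molecule C1q, and Cd52 a small glycoprotein anchored on the surface of leukocytes. Gpnmb is a transmembrane glycoprotein of lipid-loaded and phagocytic macrophages, and Mmp12 is the macrophage elastase. Clec4a3 and Cd209d encode C-type lectins of myeloid cells, receptors that bind sugars.

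At their main probes, on the 17 Gy array the C1q genes, Lyz2, Cd52 and Clec4a3 were higher than on the 0 Gy array, by 1.79-fold to 2.65-fold. Gpnmb and Mmp12 were high on the 0.85 Gy array and near or below detection on the others. Cd209d was lower on each dosed array than on the 0 Gy array, by 2.31-fold to 2.41-fold. On the 8.5 Gy array C1qb and C1qc had their lowest values. These values led to the choice of the genes, so they are given as a description. A lower value in a dissected tissue can come from fewer macrophages, from less RNA in each or from a different make-up of the tissue. These cannot be told apart here.

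Raw intensities are given as deposited and are not scaled between arrays, whose median intensities were 93, 109, 105 and 96 at 0, 0.85, 8.5 and 17 Gy. Log2 differences and folds come from background-corrected, quantile-normalized values, so a raw value that is higher on a brighter array need not be higher after normalization. A probe counted as detected at a detection p under 0.01, and where a gene had several probes its brightest by mean raw intensity, called the main probe, stood for it. By this rule 8 of the 15 probes were detected on all 4 arrays, 3 on 1 to 3 arrays and 4 on no array. At their main probes 7 of the 9 genes were detected on all 4 arrays, Gpnmb on 3 and Mmp12 on 1.

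The label thyroid was not matched by the thyrocyte markers. Of 9 thyrocyte list genes with a probe, 8 were detected on no array, Tg, Slc5a5 and Pax8 among them, and Tshr was detected on each. Fat genes were abundant, with summed raw intensities of the 12-gene list between 67611 and 79948. The skeletal muscle list, 15 genes, summed to 135636 at 8.5 Gy and to between 1287 and 1648 on the other arrays. The salivary gland list, 10 genes, summed to 15382 at 17 Gy and to between 1454 and 1688 on the others. The tissue make-up therefore differed between the doses in these markers, and its part in the macrophage gene values below was not tested.

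**Figure D1:**
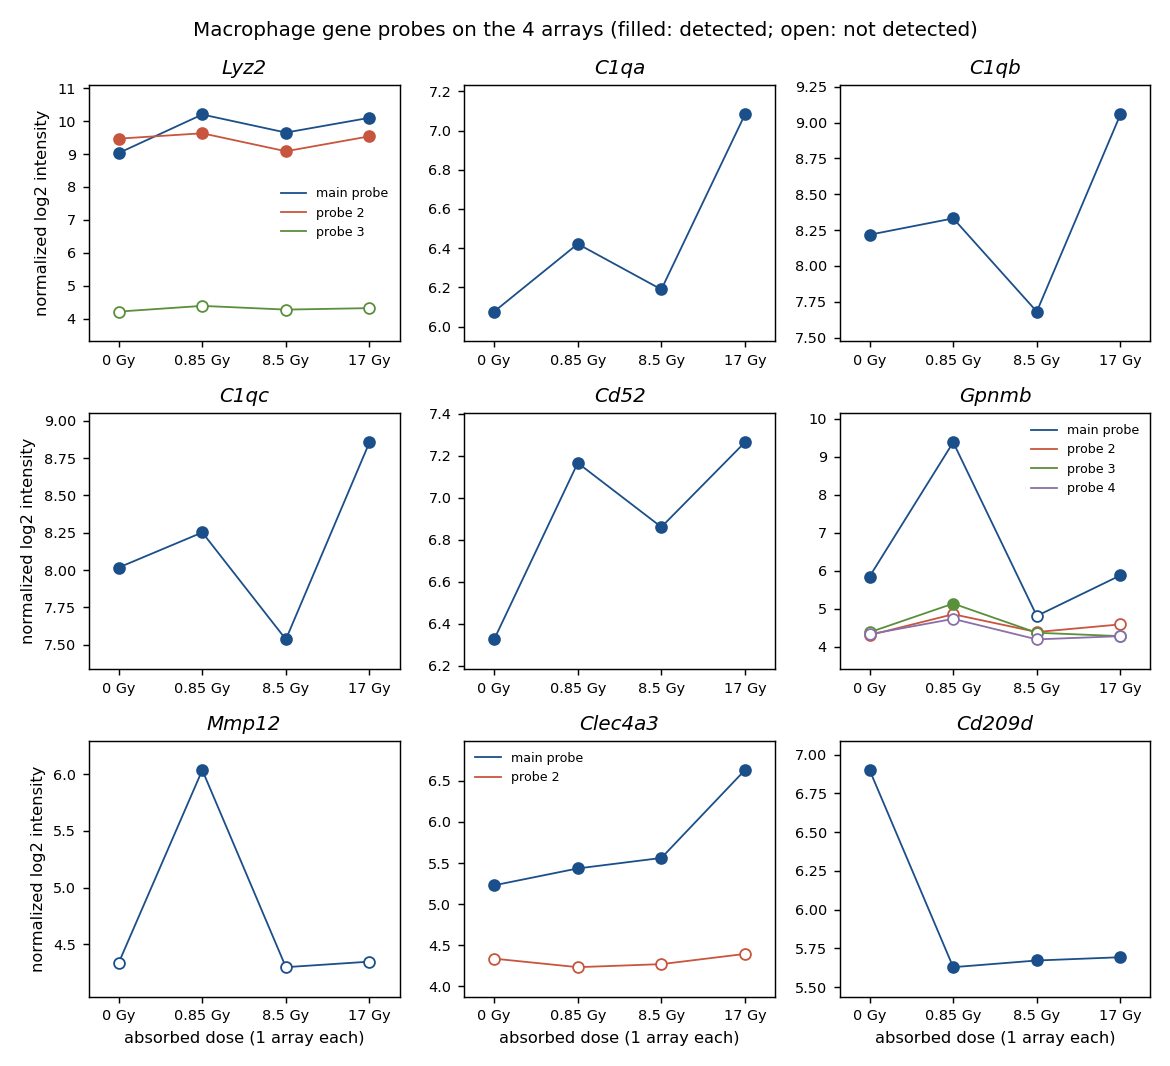
Normalized log2 intensity of each probe of the 9 macrophage genes (y axis, its own range in each panel) on the 0, 0.85, 8.5 and 17 Gy arrays (x axis, 1 array each). Filled points were detected at p under 0.01 and open points were not; Gpnmb and Mmp12 stand out at 0.85 Gy, C1qa, C1qb, C1qc and Clec4a3 are highest at 17 Gy, and Cd209d is highest at 0 Gy.

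C1qb and C1qc lie next to each other, with C1qa beside C1qc, in the mouse gene table. The windows of 250 bases before the starts of C1qb and C1qc are shown because these genes had nearly the same profile over the arrays, and those of Gpnmb and Mmp12 because both genes were high on the same array. Sequences are from RefSeq (GRCm38.p6), which held a window for 8 of the 10 genes. Each is written 5′ to 3′ on the strand of its gene.
C1qb, chr4:136886201-136886450, minus strand: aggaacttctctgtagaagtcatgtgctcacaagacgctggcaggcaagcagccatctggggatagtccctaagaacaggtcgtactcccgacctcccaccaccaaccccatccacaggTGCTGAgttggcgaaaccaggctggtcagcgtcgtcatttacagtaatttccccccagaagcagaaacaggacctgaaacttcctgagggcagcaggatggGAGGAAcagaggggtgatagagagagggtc
C1qc, chr4:136892915-136893164, minus strand: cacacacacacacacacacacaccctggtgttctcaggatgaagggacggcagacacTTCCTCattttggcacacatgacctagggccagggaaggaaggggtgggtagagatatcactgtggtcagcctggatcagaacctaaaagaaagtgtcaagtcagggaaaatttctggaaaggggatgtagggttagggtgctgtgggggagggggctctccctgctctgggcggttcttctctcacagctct
Gpnmb, chr6:49036268-49036517, plus strand: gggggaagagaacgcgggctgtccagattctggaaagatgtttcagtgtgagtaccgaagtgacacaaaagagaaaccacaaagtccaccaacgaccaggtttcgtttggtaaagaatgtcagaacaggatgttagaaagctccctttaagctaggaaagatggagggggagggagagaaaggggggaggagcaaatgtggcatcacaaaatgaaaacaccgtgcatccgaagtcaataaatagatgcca
Mmp12, chr9:7347124-7347373, plus strand, the second of its windows: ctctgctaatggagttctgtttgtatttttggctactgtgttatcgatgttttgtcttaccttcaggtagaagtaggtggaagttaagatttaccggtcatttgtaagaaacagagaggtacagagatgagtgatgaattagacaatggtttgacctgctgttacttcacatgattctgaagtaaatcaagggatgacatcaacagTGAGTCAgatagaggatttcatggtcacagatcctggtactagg
Capitals mark matches on either strand to 3 short motifs. These are GAGGAA, the core bound by the myeloid factor PU.1, TGCTGA, the core of a MAF half-site, and TGANTCA, the site of AP-1. The last 2 can overlap at their TGA, which happened in none of these windows.

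The C1qb window held a PU.1 core beginning 30 bases before the start and a MAF core at 131 bases. The C1qc window held a PU.1 core, on its other strand, at 193 bases. An AP-1 site began 44 bases before the second start of Mmp12, whose first window, chr9:7344147-7344396, held no AP-1 site and a PU.1 core at 86 bases. The Gpnmb window held none of the 3. Among the 32851 mouse windows of this length, 23.3% held GAGGAA, 16.1% TGCTGA and 6.75% TGANTCA. Matches to GAGGAA and TGCTGA are thus common and those to TGANTCA less so, and none is evidence of binding.

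Among the C1q chains, C1qb and C1qc had nearly the same profile. C1qb had raw intensities of 338, 454, 290 and 571 at 0, 0.85, 8.5 and 17 Gy, and normalized log2 values of 8.22, 8.33, 7.68 and 9.06. C1qc had raw intensities of 304, 434, 269 and 508 and normalized log2 values of 8.02, 8.25, 7.54 and 8.86. In both genes the 17 Gy array was highest and the 8.5 Gy array lowest, while the 0 and 0.85 Gy arrays lay close together between them. The distance between the 2 profiles, each centred on its own mean over the 4 arrays, was 0.10 log2 units, the smallest among the 7 members detected on all arrays. C1qa was dimmer, at 132, 180, 156 and 204, with normalized log2 values of 6.08, 6.42, 6.19 and 7.08. It shared the high 17 Gy value but not the low 8.5 Gy value, and lay 0.41 from Clec4a3, 0.45 from C1qc and 0.48 from C1qb.

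Between 17 and 0 Gy the log2 difference was 1.01 in C1qa (2.01-fold), 0.84 in C1qb (1.79-fold) and 0.84 in C1qc (1.79-fold). Between 0.85 and 0 Gy it was 0.35 in C1qa, 0.11 in C1qb and 0.24 in C1qc, all under 1.3-fold. Between 8.5 and 0 Gy it was 0.11 in C1qa, -0.54 in C1qb and -0.48 in C1qc. In C1qb and C1qc the widest gap was between the 17 and 8.5 Gy arrays, at 2.60-fold and 2.50-fold, and in C1qa, at 1.86-fold there, it was between the 17 and 0 Gy arrays. The 17 and 8.5 Gy arrays are those that carried the salivary and the muscle markers.

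Lyz2, a common marker of myeloid cells, had 3 probes that disagreed. Its main probe had raw intensities of 536, 1431, 910 and 1088 in order of dose, and its second probe had 700, 994, 633 and 767. The third probe, at 77 to 101, was detected on no array. At the main probe the 0 Gy array was the lowest, with log2 differences of 1.17 at 0.85 Gy (2.25-fold), 0.62 at 8.5 Gy (1.54-fold) and 1.07 at 17 Gy (2.10-fold). At the second probe the same differences were 0.16, -0.38 and 0.07.

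The probes disagreed on the 0 Gy array alone. The main probe minus the second probe was 0.57, 0.57 and 0.56 log2 units at 0.85, 8.5 and 17 Gy, a spread of 0.0092, and -0.44 at 0 Gy. Between dosed arrays both probes gave nearly the same result, for example 0.45 log2 for 17 minus 8.5 Gy at each. Among 2376 probe pairs from 1477 genes with at least 2 probes detected on all 4 arrays, 2 pairs agreed within 0.1 log2 over the dosed arrays while standing at least 0.9 apart on the 0 Gy array, Lyz2 and Rnf6. With the 0.85 Gy array as the one apart there were also 2 pairs, and with the 8.5 and 17 Gy arrays 0 each. These limits were set after Lyz2 was seen. The higher Lyz2 values of the dosed arrays rest on the main probe, and which probe is right was not tested.

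Lyz1, the neighbouring lysozyme gene, is a close relative of Lyz2, so which of the genes gave a signal is uncertain. The brightest Lyz1 probe had 4288, 5515, 4173 and 6717, and its log2 differences from 0 Gy were -0.13, -0.40 and 0.65 at 0.85, 8.5 and 17 Gy. This probe was highest at 17 Gy, as the C1q genes were. The other Lyz1 probes, also detected on all 4 arrays, were lowest at 0 Gy, with 0.06, 0.68 and 0.46 at the second probe and 0.99, 0.79 and 0.26 at the third. The Lyz1 probes thus disagreed with each other on which array was highest.

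Cd52 followed the main Lyz2 probe, at a distance of 0.24 between the centred profiles. Its raw intensities were 143, 245, 200 and 221, with normalized log2 values of 6.33, 7.17, 6.86 and 7.26. The 0 Gy array was lowest, and the log2 differences from it were 0.84 at 0.85 Gy (1.79-fold), 0.53 at 8.5 Gy (1.45-fold) and 0.94 at 17 Gy (1.92-fold). Cd52 is also carried by lymphocytes. Of 14 genes of the T and NK cell list with a probe, 10 were detected on no array, Cd3d, Cd3e, Cd4 and Cd8a among them. The other 4, Cd3g, Cd8b1, Nkg7 and Klrd1, were detected at 17 Gy, where Cd52 was highest. Their log2 differences from 0 Gy were 0.85, 0.15, 0.77 and 0.62 as measured. Of these Klrd1 alone was detected at 0 Gy, and the others entered only through the 17 Gy array. With undetected 0 Gy values at the lowest detected value of that array, Cd3g was at least 1.09-fold and Nkg7 at least 1.61-fold higher. Cd8b1 had no difference left. Of 8 B and plasma cell genes, 6 were detected on no array, including Cd79a and Ms4a1. The part of lymphocytes in the Cd52 values was not tested.

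Gpnmb was the member with the widest range, at least 20.6-fold between the 0.85 and 8.5 Gy arrays at its main probe. That probe had raw intensities of 123, 852, 110 and 130 at 0, 0.85, 8.5 and 17 Gy. The 0.85 Gy array stood far above the others, and the 8.5 Gy value was not detected, with a detection p of 0.047. Against 0 Gy it was 11.6-fold higher at 0.85 Gy (3.53 log2), the highest difference among 6698 genes detected on both arrays, and 1.02-fold higher at 17 Gy (0.03 log2). At 8.5 Gy it was at least 1.79-fold lower than at 0 Gy, where "at least" means that the undetected value was replaced by the lowest detected value of its array if that was higher.

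The other Gpnmb probes were dim. They had raw intensities of 83, 115, 98 and 95, of 86, 122, 97 and 84, and of 84, 112, 85 and 84 in order of dose. Only the 122 at 0.85 Gy was detected, and each of these probes was also highest at 0.85 Gy. Their log2 differences between 0.85 and 0 Gy were 0.55, 0.75 and 0.40. The probes at 0.55 and 0.40 were detected on neither array. The probe at 0.75 had no difference left with its undetected 0 Gy value at the lowest detected value of that array. Both the direction and the size of the Gpnmb difference therefore rest on the main probe.

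Mmp12 had raw intensities of 84, 157, 93 and 87 at its single probe, and was detected at 0.85 Gy and on no other array. Its normalized log2 value was 6.04 at 0.85 Gy and on the other arrays it was not well above background. At 0.85 Gy it was at least 1.86-fold higher than at 0 Gy (undetected at 0 Gy, with a detection p of 0.61). At 8.5 and 17 Gy it was at least 2.03-fold lower than at 0.85 Gy. The 0.85 Gy array was thus the only one with high Gpnmb and Mmp12, and it was not the highest for any C1q gene.

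The 0.85 Gy array also had the highest sum of the neutrophil list, with 1169, 2002, 1677 and 1402 at 0, 0.85, 8.5 and 17 Gy. These are raw sums, and this array had the highest median intensity. The sums of the monocyte and macrophage list, 8853, and the endothelial list, 9958, were also highest on it, and that of the fibroblast list, 7840, was lowest there. Of the 5 neutrophil genes measured there, 3 were at least 2-fold higher than at 0 Gy, S100a8, S100a9 and Ltf (at least 2.15-fold). Of all genes measured, 1.26% were, with undetected values at the lowest detected value of their array. Lcn2 and Retnlg, undetected at 0 Gy, were at least 1.61-fold and 1.42-fold higher. S100a8 had log2 differences of 1.74, 1.46 and 1.23 at 0.85, 8.5 and 17 Gy, and Camp, Ngp, Elane and Mpo were detected on no array. Neutrophils also express Lyz2, and their part in its values was not tested.

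Clec4a3 was highest at 17 Gy at its main probe, with raw intensities of 105, 131, 130 and 168 and normalized log2 values of 5.23, 5.43, 5.56 and 6.63. The first 3 arrays lay within 0.33 log2 of each other and the 17 Gy array stood apart. The log2 difference was 0.21 at 0.85 Gy, 0.33 at 8.5 Gy and 1.40 at 17 Gy (2.65-fold, rank 4 from the highest of 6917 genes detected on both arrays). The second probe, at 84 to 91, was detected on no array. Clec4a1, a close relative and neighbour, had 105, 109, 106 and 122 and was detected at 0 and 17 Gy, with a log2 difference of 0.44 at 17 Gy.

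Cd209d, a mouse relative of the human lectin DC-SIGN, was the 1 member highest on the 0 Gy array. It had raw intensities of 178, 138, 134 and 123 and normalized log2 values of 6.90, 5.63, 5.67 and 5.69. The dosed arrays lay within 0.06 log2 of each other, all below the 0 Gy array, at log2 differences of -1.27 (2.41-fold lower), -1.23 (2.34-fold lower) and -1.21 (2.31-fold lower). At 17 Gy it ranked 5 from the lowest difference among 6917 genes detected on both arrays. Between dosed arrays its differences did not exceed 1.05-fold.

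Cd209b, the next Cd209 gene on the chromosome, was also highest at 0 Gy. Its main probe had 223, 163, 159 and 166, with log2 differences of -1.26, -1.16 and -0.80, and its other probes, undetected on some arrays, had -0.95, -0.52 and -0.43, and -1.05, -1.02 and -0.55. The Cd209 genes are close relatives, so which member gave a signal is uncertain. Cd209a, Cd209c and Cd209e were detected on no array.

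**Figure D2:**
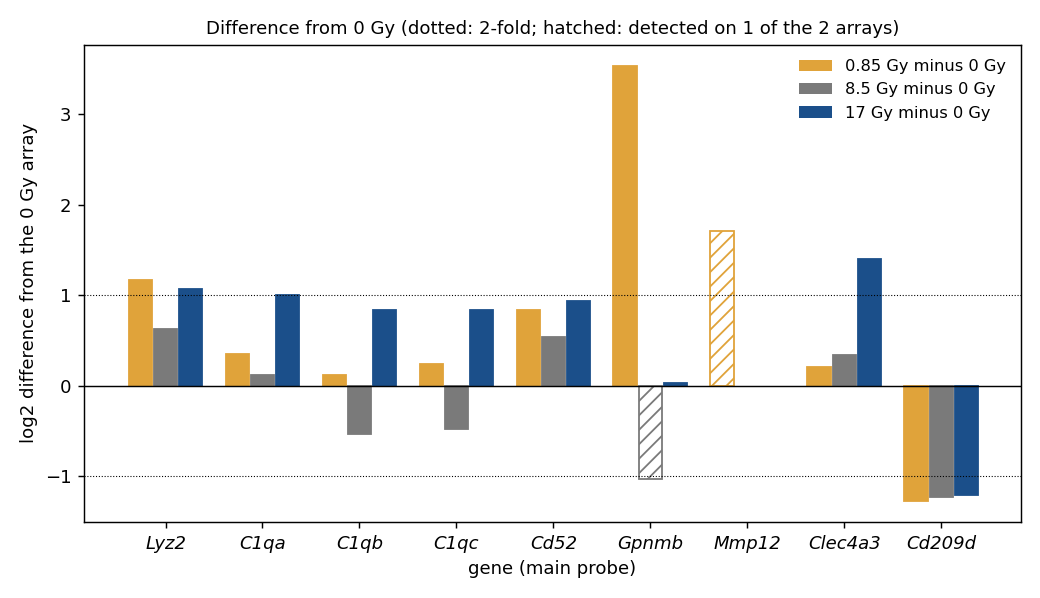
Log2 difference from the 0 Gy array at the main probe of each gene (y axis), with bars at 0.85, 8.5 and 17 Gy from left to right; dotted lines mark 2-fold and hatched bars a probe detected on 1 of the 2 arrays. Bars are left out where neither array was detected; Gpnmb reaches 3.53 at 0.85 Gy, and Cd209d lies between -1.27 and -1.21 at every dose.

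Counts of members past 2-fold are given as measured and with undetected values at their bound, a count added after the data were seen. At 0.85 against 0 Gy, 3 of 9 members were past 2-fold higher as measured (Lyz2, Gpnmb and Mmp12), against 1.78% of all genes measured, and 2 at the bound, without Mmp12 (1.26%). Cd209d was the 1 member lower in both counts (3.68% as measured and 2.97% at the bound). At 8.5 against 0 Gy, 0 of 8 were higher (2.63% and 2.04%). There 2 were lower as measured, Gpnmb and Cd209d (3.63%), and Cd209d alone at the bound (2.96%). At 17 against 0 Gy, 3 of 8 were higher in both counts, Lyz2, C1qa and Clec4a3 (0.880% and 0.574%), and Cd209d was lower (0.459% and 0.191%). The members were chosen on these same comparisons, so nothing is read from their counts against the background. With the authors' normalized intensities, 0 members were 2-fold higher and 0 lower at 17 Gy, and 0 were lower at 0.85 or 8.5 Gy.

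In order of dose, the members' median log2 differences from the 0 Gy array, as measured and at the bound alike, were 0.35, -0.18 and 0.89, and those of all genes measured were -0.0050, -0.04 and 0.00. Above 0 were 8 of 9 members at 0.85 Gy, 4 of 8 at 8.5 Gy and 7 of 8 at 17 Gy. Of all genes measured, 49.3%, 45.4% and 49.5% were above 0. The 3 comparisons share the 0 Gy array.

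Between dosed arrays, 4 of 8 members were past 2-fold higher at 17 than at 8.5 Gy as measured, C1qb, C1qc, Gpnmb and Clec4a3 (3.47% of all genes), and 0 were lower (2.65%). At the bound 3 were higher (2.87%), since Gpnmb was at least 1.83-fold higher, and 0 were lower (2.09%). At 8.5 against 0.85 Gy, 0 of 9 were higher (3.27% as measured and 2.58% at the bound) and 2 were lower in both counts (1.48% and 1.05%), Gpnmb and Mmp12. At 17 against 0.85 Gy, Clec4a3 was 2.30-fold higher (3.45% and 2.73% of genes past 2-fold), and Gpnmb, 11.3-fold, and Mmp12 were lower (1.35% and 1.01%). These comparisons do not use the 0 Gy array, on which the Lyz2 probes disagreed and Cd209d was high.

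Other genes of the monocyte and macrophage lineage, 30 with a probe, were mostly dim. Of these, 13 were detected on all 4 arrays and 10 on none. Itgam, Ptprc and the Fc receptor genes Fcgr1 and Fcer1g were among the 10. Adgre1, which encodes the macrophage antigen F4/80, had 180, 240, 189 and 241, with log2 differences of 0.19, -0.22 and 0.52 at 0.85, 8.5 and 17 Gy. Cd14, a receptor for bacterial lipopolysaccharide, had 148, 201, 161 and 197, with 0.28, -0.15 and 0.57. Both were highest at 17 Gy after normalization and under 2-fold from 0 Gy. A second detected Adgre1 probe had 0.46, 0.77 and 0.82, so the Adgre1 probes disagreed in direction at 8.5 Gy.

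Among the 20 genes of this list measured at 17 Gy, 18 were above 0 Gy as measured, with a median of 0.45, or 0.35 with undetected values at their bound. Of the 20, 15 were detected at 0 Gy. The rest entered only through the 17 Gy array, so a value above 0 was close to fixed for them. At the bound 0 were 2-fold higher, and Irf8, a transcription factor of monocytes and dendritic cells, was at least 1.52-fold higher. Of all genes, 49.5% were above 0, and nothing is read from the 18 against that share. Aif1, which encodes the calcium-binding macrophage protein IBA1, was detected on each array at 123, 140, 129 and 177, with 0.91 at 17 Gy and 0.86 at its second detected probe. Ms4a6d was at 0.89, the inhibitory Fc receptor gene Fcgr2b at 0.77 and Tyrobp, an adaptor of activating receptors, at least 1.06-fold higher. At 8.5 Gy 3 of 17 were above 0 (45.4% of all genes), with a median of -0.33, and 0 were 2-fold higher or lower (2.63% and 3.63%). At 0.85 Gy 6 of 16 were above 0 (49.3% of all genes) and the median was -0.11.

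Genes of resident and alternatively activated macrophages had a different order of arrays. At 0.85 Gy 0 of 16 measured genes were above 0 (49.3% of all genes) and the median was -0.77. There 4 were at least 2-fold lower at the bound, where 2.97% of all genes were. At 8.5 Gy the median was -0.91, and 7 of 17 were at least 2-fold lower at the bound (2.96% of all genes), with Timd4 at least 1.34-fold lower. At 17 Gy the median was -0.09 and 0 were 2-fold higher or lower at the bound. Vsig4, the complement receptor of resident macrophages, was at least 1.52-fold higher. F13a1, a coagulation factor subunit made by macrophages, had 397, 196, 219 and 512, with log2 differences of -1.85, -1.41 and 0.37. Clec10a, a galactose-binding lectin, had 419, 261, 237 and 435, with -1.29, -1.34 and -0.01. In both the 0 and 17 Gy arrays were high and the other arrays low, unlike Cd209d, which was low at 17 Gy too.

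Mrc1, the mannose receptor, had 246, 247, 198 and 427 and log2 differences of -0.43, -0.78 and 0.94. Cd163, the haemoglobin scavenger receptor, had 272, 218, 205 and 385 and differences of -0.89, -0.87 and 0.58. Stab1 was at -0.62, -1.20 and -0.34, and Igf1, which many other cells express, at -1.05, -1.40 and -0.49. The fibroblast list showed low values on the same arrays, with medians of -0.88 at 0.85 Gy, -1.04 at 8.5 Gy and 0.04 at 17 Gy over 9, 9 and 10 genes, and its part in the values of this list was not tested.

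Lipid-associated and lysosomal genes, among which Gpnmb is usually counted, did not follow it as a list. At 0.85 Gy 8 of 19 were above 0 (49.3% of all genes) and the median was -0.05. There 0 were 2-fold higher (1.78% of all genes as measured) and 2 were 2-fold lower (3.68%), Lipa and Hexa. Lipa, the lysosomal acid lipase, had 560, 263, 535 and 424, with log2 differences of -1.80, -0.30 and -0.58. Trem2, a lipid receptor of such macrophages, had 101, 125, 99 and 99 and was detected at 0.85 Gy alone, at least 1.06-fold higher than at 0 Gy. Lgals3, or galectin-3, had 436, 892, 388 and 1371, with log2 differences of 0.78, -0.42 and 1.79. It was the 1 gene of 19 that was 2-fold higher at 17 Gy (0.880% of all genes as measured). Plin2, a lipid droplet protein, was at 0.63, 0.75 and -0.19. Mitf, Tfeb and Tfec, whose family of transcription factors controls lysosomal genes, were detected on no array. Tfe3, a gene of the same family that was not on the list, was detected on all 4 arrays. It had 113, 191, 156 and 168, with log2 differences of 1.04, 0.65 and 1.09.

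Complement genes other than C1q were led by the low 8.5 Gy array. There the median was -0.95 over 8 genes. Of these 3 were 2-fold lower (3.63% of all genes as measured and 2.96% at the bound) and 0 higher (2.63% and 2.04%). The 3 were C2, a substrate of the C1 complex, at -1.75, Cfb at -1.54 and Cd55 at -1.37. C4b, the partner of C2, had raw intensities of 611, 769, 391 and 1048. Its log2 differences were -0.04, -0.98 and 0.80, highest at 17 Gy and lowest at 8.5 Gy like C1qb and C1qc, but below 0 Gy at 0.85 Gy, where those were above it. Serping1, the inhibitor of C1, was at -0.14, -0.92 and 0.07, and the list median was -0.29 at 0.85 Gy and 0.10 at 17 Gy. Without a detection filter the 8.5 Gy median was -0.08.

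C-type lectin genes gave 4, 4 and 5 measured genes at 0.85, 8.5 and 17 Gy, with medians of -0.52, -0.53 and 0.59 as measured, and -0.24, -0.35 and 0.30 with undetected values at their bound. The direction at 17 Gy depended on the filter, since with detection on all 4 arrays Cd209b was the only gene left, at -0.80. At 0.85 Gy the median was 0.01 with no filter. Clec7a, the receptor of fungal glucans, was at least 1.52-fold higher at 0.85 Gy than at 0 Gy at its main probe, while another probe gave -0.05 log2 there, and Clec4n at least 1.11-fold higher at 17 Gy.

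Of the other metalloproteinase and inhibitor genes, 0 of 10 were 2-fold higher at the bound at 0.85 Gy, where Mmp12 was detected (1.26% of all genes). There 3 were lower (2.97%). Mmp11 was at least 1.42-fold higher. Mmp13, a collagenase beside Mmp12 on the chromosome, had 98, 134, 118 and 146 at its main probe and was at least 2.15-fold higher at 17 Gy than at 0 Gy, with its other probes undetected. Mmp3, which fibroblasts make, had 284, 199, 124 and 207, with -1.21, -2.53 and -0.77. Mmp2 was at -0.75, -1.15 and 0.43. In order of dose the list medians were -0.57, -0.88 and 0.22, and the last was 0.00 with undetected values at their bound and -0.26 with detection on all 4 arrays.

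**Figure D3:**
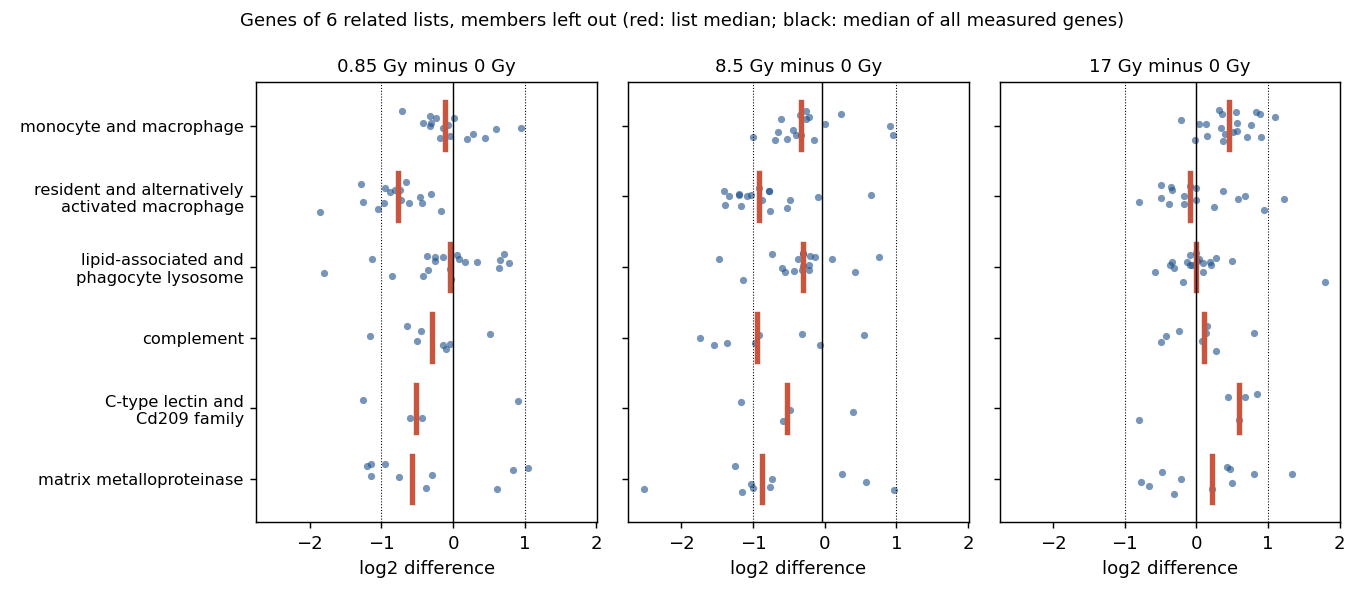
Log2 difference from the 0 Gy array (x axis) of each measured gene in 6 related lists (rows), at 0.85, 8.5 and 17 Gy from left to right, with the 9 macrophage genes left out. Red bars are list medians, the black line is the median of all genes measured and dotted lines mark 2-fold; the monocyte and macrophage list has its median at 0.45 at 17 Gy and the resident list at -0.77 and -0.91 at 0.85 and 8.5 Gy.

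**Figure D4:**
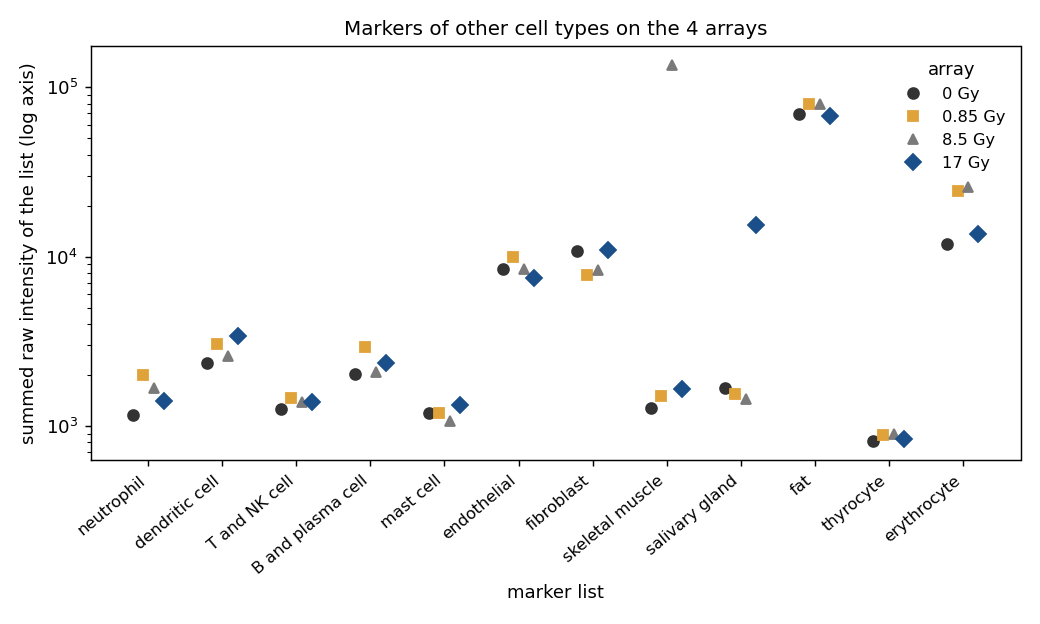
Summed raw intensity (y axis, log scale) of 12 marker lists of other cell types (x axis) on the 4 arrays. Skeletal muscle reaches 135636 at 8.5 Gy and salivary gland 15382 at 17 Gy, while the neutrophil list is highest at 0.85 Gy and the thyrocyte list lies between 811 and 900 throughout.

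Likeness to a member was measured as the distance between centred profiles over the 4 arrays, across 6470 other genes detected on all of them. Closest to C1qa were H2-Eb1, an MHC class II chain, and Negr1, both at 0.17, then Vcl, Nucks1 and Fkbp14 at 0.20 to 0.23. H2-Eb1 had raw intensities of 794, 1392, 939 and 1611 and a log2 difference of 1.02 at 17 Gy. Closest to the main Lyz2 probe were Tfe3 at 0.13, Tapbp at 0.15, Acsm3, Cideb and Manea. Closest to Cd209d were Serpina1b at 0.19, Sema5a, Aoc3, Plau and Serpina1d, and Plau had 840, 408, 422 and 443. Among the 6470 genes the nearest to Gpnmb was H2-D1, 2.08 away with 1.06 at 0.85 Gy and -1.18 at 8.5 Gy. Gpnmb itself was undetected at 8.5 Gy, and genes undetected on any array were not candidates. How unusual the Gpnmb profile was therefore cannot be read from this distance. These names describe likeness over 4 arrays only.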

How the data were processed

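The authors' deposited non-normalized table gives an intensity per probe and array as whole numbers on the linear scale, with lowest values of 69 to 79, so background had apparently not been subtracted, and a detection p-value beside each, per the file headers. A deposited normalized table and the value table hold the authors' quantile-normalized intensity, inferred from columns with identical sorted values. Scanner software is not given in the sources used here. From 26512 probes, neqc of limma 3.58.1 in R 4.3.3 corrected background from the detection p-values, added an offset of 16, quantile-normalized and took log2. The offset shrinks differences of dim probes, yet at Mmp12, Clec4a3 and Cd209d they were larger than with no background correction. Mmp12 at 0.85 against 0 Gy was at 1.70 log2, and at 0.84 with the authors' intensities and 0.65 with no background correction. On simulated arrays neqc gave the right direction for bright changed probes. That check did not score dim probes, such as those of Mmp12, Clec4a3 and Cd209d. The 25697 probes of the value table were named from the platform annotation. A gene entered a comparison if detected at p under 0.01 on at least 1 of its 2 arrays. With 1 array per dose there was no test, and the number of arrays limits precision. Python 3.11.15, numpy 2.4.6, pandas 2.3.3 and matplotlib 3.10.9 were used.

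All 10 genes are named, as are the 5 genes nearest to C1qa, Lyz2, Gpnmb and Cd209d. Genes of the 6 related lists were taken from up to 6 with the largest differences from 0 Gy plus fixed lineage genes. Those of the 12 lists of other cell types were taken from up to 4 bright genes. Not all genes that these rules give are described. Left out are, for example, Cx3cr1, Ctsk, Ctsz, Calr, Clec4b1, Timp2 and Timp3. Undetected markers, Rnf6, Lyz1, relatives of the members and the further list genes given with their bounds were added after values were seen, as was the count with undetected values set at their bound (the lowest detected value of the array, and a difference of 0 where that turned the sign). The members and lists were chosen with earlier results of these data known.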

Additional observations from a re-analysis of the deposited data

How the results depend on the processing

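Of 51 member differences over the 6 comparisons of arrays, 51 kept their sign under each of the 8 alternatives that gave a value. Of 399 recomputed values, 34 moved by more than 1.5-fold, 0.58 log2, and 0 reversed. Alternatives that change only the detection filter could not move a value. Neither could the mean of all probes in a gene with 1 probe. The agreement in sign therefore rests on the remaining values. A second probe alone was not among the alternatives. At 8.5 against 0 Gy the second Lyz2 probe gave -0.38 log2, where the main probe gave 0.62. Counts of members past 2-fold as measured moved more. With the authors' normalized intensities, or with no background correction, the 17 against 0 Gy counts were 0 higher and 0 lower in place of 3 and 1, and the counts lower than 0 Gy at 0.85 and 8.5 Gy were 0 in place of 1 and 2. An offset of 50 gave 1 higher and 0 lower at 17 Gy and 0 lower at both other doses. In these 3 settings the counts lower at 8.5 and 17 than at 0.85 Gy were 1 in place of 2, that higher at 17 than at 0.85 Gy 0 in place of 1, and that higher at 17 than at 8.5 Gy 2 in place of 4. The cause was not tested. The mean of all probes gave 1 lower at 8.5 Gy, 1 higher at 17 Gy, 0 higher at 17 than at 0.85 Gy and 2 higher at 17 than at 8.5 Gy. Detection on all 4 arrays, which removes Gpnmb and Mmp12, left 1 higher at 0.85 Gy, 1 lower at 8.5 Gy, and 0 lower at 8.5 or 17 than at 0.85 Gy. With undetected values at their bound, a setting chosen after seeing the data, 1 member was lower at 8.5 Gy in place of 2. At 1.5-fold, 1 was higher at 8.5 Gy and 6 at 17 Gy against 0 Gy, 4 were lower at 8.5 and 4 higher at 17 than at 0.85 Gy. At 3-fold 0 remained lower at each dose than at 0 Gy, 0 higher at 17 Gy against 0, 0.85 or 8.5 Gy. The shares of all genes given above are for 2-fold in the main setting. Nothing is therefore read from the counts under other settings against a background.

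Gpnmb at 0.85 Gy stayed between 1.31 and 3.57 log2, the lowest with the mean of all probes, and Mmp12 between 0.65 and 1.70. Lyz2 was at 0.50 at 0.85 Gy and 0.42 at 17 Gy with the mean of all probes. Clec4a3 at 17 Gy lay between 0.62 and 1.40, and Cd209d between -1.31 and -0.61 over the 3 doses, nearest 0 with no background correction. Of 168 recomputed list medians 5 moved. No paired analysis was possible because each dose has 1 array, and for the same reason no array could be left out. Dim probes such as those of Mmp12, Clec4a3 and Cd209d sit close to background, and their differences were smaller with no background correction.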
